A study of Mus musculus with 4 samples.

Results

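Keratins are the intermediate filament proteins of epithelial cells, and 10 of their genes that are characteristic of the epidermis or of wounded and cultured skin were followed here in keratinocytes (KCs) of WT and Nfat5-/- mice. They were taken by name from the 25814 genes of the deposited tables: Krt5, Krt14 and Krt15 of the basal layer, Krt1 and Krt10 of the suprabasal layers, and Krt6a, Krt6b, Krt16, Krt17 and Krt75 of wounds, hair follicles and cultured KCs. The tables hold 53 keratin genes in all.

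The KCs were grown from the tail epidermis of adult 129/sv mice as untreated primary cultures in a serum-free medium with low calcium, a condition that favours the basal state, and polyadenylated RNA was sequenced. There were 2 WT libraries and 2 Nfat5-/- libraries, numbered 1 and 2 as in the sample titles. The Nfat5-/- mice lack the osmo-sensitive transcription factor NFAT5 in the whole body, so these cultures also came from animals whose kidney and blood salt are affected, and WT siblings served as controls. The series names separate experiments for each genotype but no batch or date, and p-values measure the spread between these cultures alone.

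A keratin filament is built from pairs of a type I and a type II keratin, so the members are partners as well as alternatives. Basal KCs make the pair K5 and K14 and, when they leave the basement membrane, change to K1 and K10. After wounding, and in culture, KCs make K6, K16 and K17, which in undisturbed skin are found mainly in hair follicles and other appendages.

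The libraries held 15899630 and 21194372 exon reads in WT and 23059639 and 18312378 in Nfat5-/- KCs, of which 86.8% to 87.3% were placed at a single site. The lowest level these depths can show, taken as 3 reads, was 0.130 to 0.189 CPM (reads scaled to the total of the library). Nfat5 itself had 374 and 894 exon reads in the WT libraries and 654 and 714 in those labelled Nfat5-/- (log2 fold change 0.04 ± 0.27 SE, edgeR adjusted p = 0.959). The tables count whole genes and not single exons, so the level of Nfat5 does not check the labels, and "Nfat5-/-" stands throughout for the libraries with that label. Across the 12111 genes tested on total exon reads, edgeR called 175 at an adjusted p below 0.05, 1.44% of them, with 130 higher and 45 lower in Nfat5-/- KCs. On the reads placed at a single site, called unique exon reads below, 218 of 11680 genes were called, 1.87%.

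The type II members lie on the minus strand of chromosome 15 and the type I members on the minus strand of chromosome 11 (GRCm38), in clusters of related genes. Krt6a (chr15:101689910-101694307, 9 exons) and Krt6b (chr15:101676023-101680287, 9 exons) are neighbours in the first cluster, with 1622 of 1659 aligned coding bases identical (97.8%). A read of 59 bases, the length sequenced here, therefore often could not tell them apart. To show this, the first run of 59 identical coding bases within an exon of both genes and the run that differs most are printed from the GENCODE M21 transcripts of the reference genome, with differing bases in capitals. The identical run lies in exon 1 of both genes (chr15:101694157-101694215 in Krt6a, chr15:101680132-101680190 in Krt6b). The most different run lies in exon 4 (chr15:101692484-101692542 and chr15:101678303-101678361) and has 10 differences.
Krt6a, exon 1, identical run: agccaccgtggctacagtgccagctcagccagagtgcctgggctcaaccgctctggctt
Krt6b, exon 1, identical run: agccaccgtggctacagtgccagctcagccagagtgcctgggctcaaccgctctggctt
Krt6a, exon 4, most different run: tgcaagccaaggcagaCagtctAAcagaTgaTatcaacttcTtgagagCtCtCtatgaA
Krt6b, exon 4, most different run: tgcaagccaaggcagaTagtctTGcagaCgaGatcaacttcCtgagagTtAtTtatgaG

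The type I members Krt14, Krt16 and Krt17 are less alike over their whole coding sequence (86.0% for Krt14 and Krt16, 83.8% for Krt14 and Krt17), but Krt14 and Krt16 also share stretches longer than a read. The first such run lies in exon 1 of both (chr11:100207340-100207398 in Krt14, chr11:100248775-100248833 in Krt16) and is shown because a read from it fits a basal and a wound keratin equally well.
Krt14, exon 1, identical run: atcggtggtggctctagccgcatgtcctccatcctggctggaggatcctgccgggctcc
Krt16, exon 1, identical run: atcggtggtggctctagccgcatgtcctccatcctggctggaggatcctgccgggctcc

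All 10 members passed the filter on low counts, but their levels in RPKM (exon reads relative to exon length and library depth) fell into 3 ranges. Krt5, Krt14, Krt6a and Krt17 were above 2000 RPKM in every library, Krt6b and Krt16 lay between 75.6 and 348.5 RPKM, and Krt15, Krt1, Krt10 and Krt75 lay at or below 1.68 RPKM. Krt5 and Krt14, which define KCs of the basal layer, were among the 8 most abundant genes of each library by RPKM. The 10 genes together took 4.00% and 3.59% of the exon reads in WT and 4.14% and 4.77% in Nfat5-/- KCs, with both Nfat5-/- values above both WT values (3.80 ± 0.288 against 4.45 ± 0.441, SD, n = 2).

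**Figure D1:**
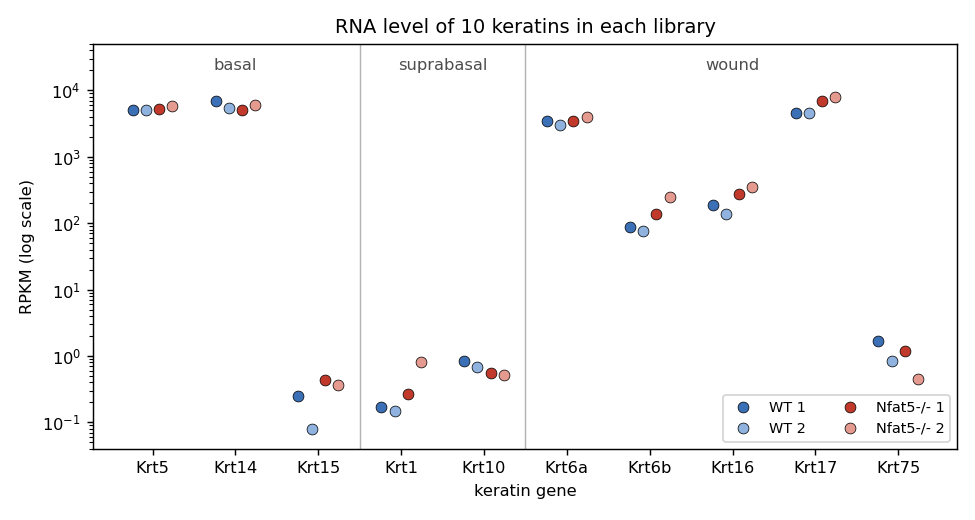
RPKM of the 10 keratins on a log axis, 1 point per library, grouped into basal, suprabasal and wound keratins. Krt5, Krt14, Krt6a and Krt17 lie above 2000 RPKM. Krt6b, Krt16 and Krt17 are higher in both Nfat5-/- libraries than in either WT library, as are Krt5, Krt6a, Krt1 and Krt15. Of all genes tested, 21.8% are.

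Of the wound keratins, Krt17 rose on total exon reads, and Krt6b rose as well when only unique reads were counted. Krt16 was 1.91 times as high in Nfat5-/- KCs but lay just outside the threshold on either readout. Neither the basal pair Krt5 and Krt14 nor the suprabasal pair Krt1 and Krt10 passed the test. Thus 1 of the 10 members was called on total exon reads and 2 on unique exon reads, beside backgrounds of 1.44% and 1.87%, and the 10 log2 fold changes had medians of 0.49 and 0.48, beside −0.01 over all genes tested in each case. On RPKM, 7 members were higher in Nfat5-/- KCs with no overlap between the groups and 1 was lower, beside 21.8% and 25.6% of all genes tested. An unadjusted p below 0.05 was found for 4 members on total exon reads (14.7% of all genes), and DESeq2 called 2, Krt16 and Krt17 (3.47% of all genes). Krt15 and Krt1 passed the filter on low counts only through the Nfat5-/- libraries, so their direction was set by the filter. They are 2 of the 7 higher members, Krt1 is 1 of the 4 with an unadjusted p below 0.05, and the 8 members that reached the filter level in both WT libraries had a median of 0.20 on total exon reads. Several of the 10 genes also share reads. As bulk RNA was measured, fewer cells with a keratin and less of its RNA per cell cannot be told apart.

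**Figure D2:**
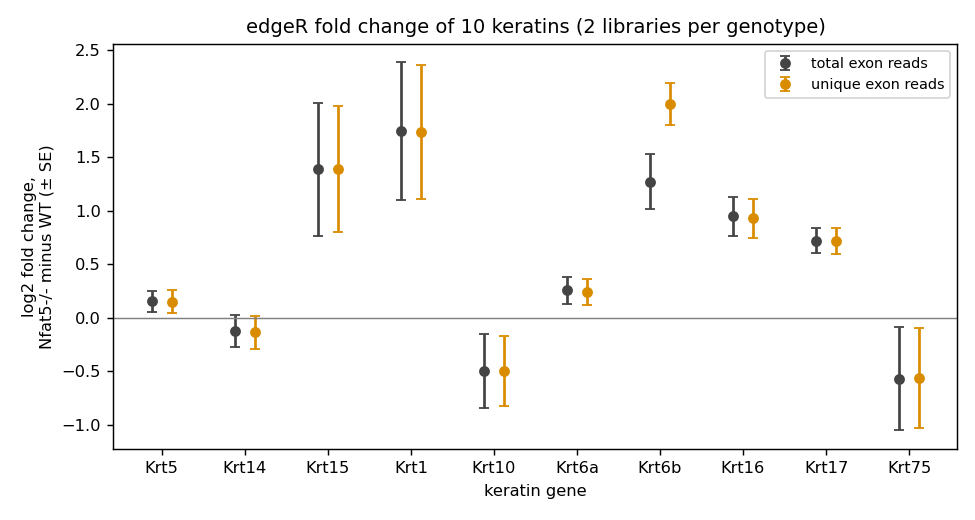
Log2 fold change of each keratin, Nfat5-/- minus WT, with its standard error from the edgeR fit over all genes, on total exon reads and on unique exon reads (2 libraries per genotype). The readouts nearly coincide for 9 of the 10 genes, while Krt6b moves from 1.27 to 2.00.

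Among the basal keratins, Krt5 (chr15:101707070-101712898, 9 exons), the type II partner of the basal pair, had 4990.4 and 5073 RPKM in the WT libraries against 5285 and 5775 RPKM in the Nfat5-/- libraries. Both Nfat5-/- values lay above the WT values, by a ratio of means of 1.10. The change did not pass the test (log2 fold change 0.15 ± 0.10 SE, edgeR adjusted p = 0.550; 0.15 on unique exon reads, adjusted p = 0.588).

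Its type I partner Krt14 (chr11:100203162-100207548, 8 exons) had 6985 and 5354 RPKM in the WT libraries against 5148 and 6046 RPKM in the Nfat5-/- libraries. The groups overlapped, and the WT libraries differed from each other by 1.30-fold. The log2 fold change was −0.13 ± 0.15 (edgeR adjusted p = 0.758), and it turned to 0.092 without WT replicate 1 and to 0.0027 without Nfat5-/- replicate 1. As a ratio within each library, Krt5 stood at 0.714 and 0.947 of the Krt14 RPKM in WT and at 1.03 and 0.955 in Nfat5-/- KCs, where the groups nearly touched.

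Krt15, a type I keratin of basal cells and of hair follicle stem cells, was almost without reads, with 7 and 3 exon reads in WT and 18 and 12 in Nfat5-/- KCs (0.248 and 0.0797 against 0.440 and 0.370 RPKM). Both Nfat5-/- values were the higher ones, but the change of 1.39 ± 0.62 on the log2 scale did not pass the test (edgeR adjusted p = 0.354). It was 2.33 without WT replicate 1 and 0.71 without WT replicate 2. Cd34, Lgr5, Lhx2 and the rest of a list of 6 hair follicle stem cell markers gave no call among the 5 tested either with edgeR, DESeq2 or limma (1 at an unadjusted p below 0.05), with a median log2 fold change of −0.07.

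The suprabasal pair was barely read in any of the 4 cultures, with at most 38 reads of a gene in a library. Krt1, the type II partner, had 7 and 8 exon reads in WT and 16 and 38 in Nfat5-/- KCs, or 0.172 and 0.147 against 0.271 and 0.811 RPKM. Both Nfat5-/- values were higher, but replicate 2 was far above replicate 1, and the log2 fold change of 1.74 ± 0.64 did not pass the test (edgeR adjusted p = 0.266, unadjusted p = 0.0275). Without Nfat5-/- replicate 2 it was 0.77, while the fit with no filter on low counts, which called 1109 genes, put Krt1 past the threshold (adjusted p = 0.0260).

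Krt10, the type I partner of Krt1, had 30 and 32 exon reads in WT and 28 and 21 in Nfat5-/- KCs, or 0.854 and 0.684 against 0.550 and 0.520 RPKM. This was the sole member that was lower in both Nfat5-/- libraries. The change of −0.50 ± 0.35 did not pass the test (edgeR adjusted p = 0.566). Its sign is not set against that of Krt1, which passed the filter on low counts only through the Nfat5-/- libraries. Neither partner was called.

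Krt17 (chr11:100256217-100261029, 8 exons), a type I keratin of hair follicles that is induced in wounded and cultured KCs, had 4619 and 4503 RPKM in the WT libraries against 6825 and 8032 RPKM in the Nfat5-/- libraries. The Nfat5-/- values lay far above the WT values, which differed from each other by only 1.03-fold. The means were 4561 ± 82.0 and 7428 ± 854 RPKM (SD, n = 2), a ratio of 1.63. Krt17 rose with a log2 fold change of 0.72 ± 0.12 (edgeR adjusted p = 0.0348). Of its exon reads 98.3% were placed at a single site, and the unique exon reads gave the same 0.72 ± 0.12 (adjusted p = 0.0318). In the order of all genes by RPKM, Krt17 stood at rank 9 in both WT libraries and at rank 1 in both Nfat5-/- libraries. The call was lost without some of the libraries, with an adjusted p of 0.0857 without WT replicate 1, 0.106 without WT replicate 2 and 0.0790 without Nfat5-/- replicate 2, and log2 fold changes of 0.58 to 0.85 over all left-out libraries. With the replicate number as a block the adjusted p was 0.0630. With limma it was 0.0806 at a pseudocount of 1 and 0.0724 at a pseudocount of 0.1. On reads that span 2 exons and have a single site, the edgeR adjusted p of Krt17 was 0.0512.

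Krt16 (chr11:100246091-100248902, 8 exons), the type I wound keratin that pairs with K6, had 190.8 and 137.4 RPKM in the WT libraries against 277.8 and 348.5 RPKM in the Nfat5-/- libraries. Both Nfat5-/- libraries were above both WT libraries. The means were 164 ± 37.7 and 313 ± 50.0 RPKM (SD, n = 2). The log2 fold change was 0.95 ± 0.18 (edgeR adjusted p = 0.0572) on total and 0.93 ± 0.18 (adjusted p = 0.0501) on unique exon reads. It passed the threshold in 5 of 17 alternatives on total and 6 of 11 on unique exon reads. Among the former were reads that span 2 exons and have a single site, on which 105 of 9788 genes, 1.07%, were called (0.89 on the log2 scale, adjusted p = 0.0470 for Krt16). Its RPKM was 0.0413 and 0.0305 of the Krt17 RPKM in WT and 0.0407 and 0.0434 in Nfat5-/- KCs, where the groups overlapped. Against Krt14 it was 0.0273 and 0.0257 in WT and 0.0540 and 0.0576 in Nfat5-/- KCs, with no overlap.

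With Krt17 called higher and Krt14 not past the test, the make-up of the type I keratin RNA was set apart between the groups. Of the summed RPKM of the 5 type I members, Krt17 supplied 39.2% and 45.1% in WT and 55.7% in each Nfat5-/- library. Krt14 supplied 59.2% and 53.6% in WT and 42.0% and 41.9% in Nfat5-/- KCs. The Krt17 to Krt14 ratio was 0.661 and 0.841 in WT and 1.33 in each Nfat5-/- library. Krt14 was thus the leading type I keratin RNA of the WT cultures, and Krt17 that of the Nfat5-/- cultures. In the type II keratins, Krt5 supplied 58.8% and 62.4% in WT and 59.2% and 57.4% in Nfat5-/- KCs, where the groups overlapped. The small share of Krt6b was higher in both Nfat5-/- libraries (1.04% and 0.930% against 1.56% and 2.49%). The ratio of type I to type II RPKM over the 10 members also overlapped, with 1.39 and 1.23 in WT and 1.37 and 1.43 in Nfat5-/- KCs. With unique exon reads over full exon length, this ratio reached at most 1.72 in WT and lay at 1.73 and 1.84 in Nfat5-/- KCs. The groups nearly touched. Full exon length includes sequence that unique reads cannot come from, which lowers the type II sum more than the type I sum. These values are therefore not read as a separation of the groups. These shares are values of 2 libraries per genotype, for which the smallest two-sided exact permutation p is 0.333, and were not tested.

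**Figure D3:**
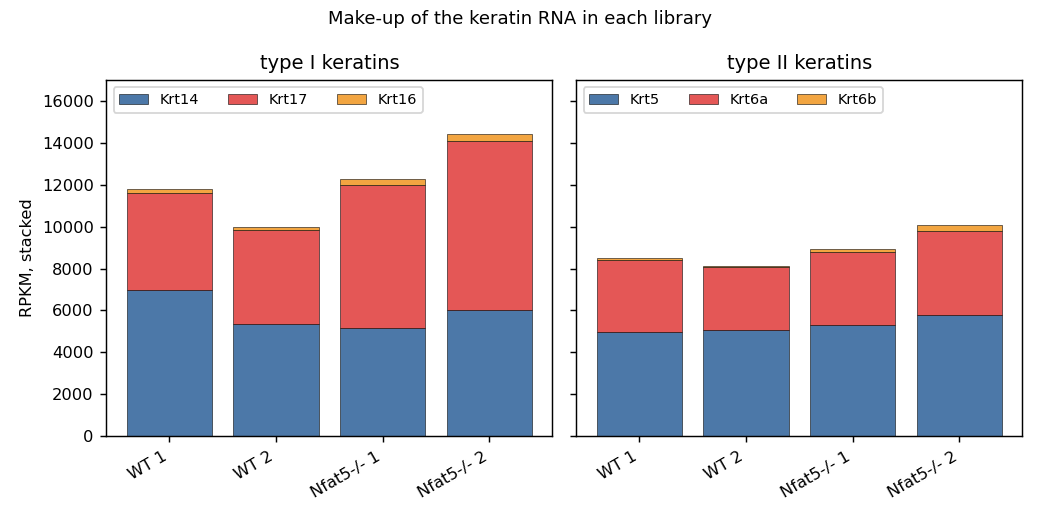
Stacked RPKM of the abundant type I members (Krt14, Krt17, Krt16) and type II members (Krt5, Krt6a, Krt6b), 1 bar per library, with colours that mark the genes. Krt17 takes 55.7% of the RPKM of the type I members in both Nfat5-/- libraries and 39.2% and 45.1% in WT. The Krt5 share of the RPKM of the type II members overlaps. Keratins outside the members, such as Krt8, are not included.

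Krt6a, the more abundant of the K6 genes and a type II wound keratin, had 3409 and 2976 RPKM in the WT libraries against 3501 and 4037 RPKM in the Nfat5-/- libraries. The Nfat5-/- values were the higher ones, but the lower of them exceeded the higher WT value by less than the gap between the WT libraries. The log2 fold change of 0.25 ± 0.12 did not pass the test (edgeR adjusted p = 0.393; 0.24 on unique exon reads, adjusted p = 0.418).

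Krt6b is the near copy of Krt6a and also encodes a K6 protein. On total exon reads it had 88.2 and 75.6 RPKM in the WT libraries against 139.7 and 250.4 RPKM in the Nfat5-/- libraries. Both Nfat5-/- libraries were higher, but they differed from each other by 1.79-fold, and the log2 fold change of 1.27 ± 0.26 missed the threshold (edgeR adjusted p = 0.0635). These values rest mostly on reads that fit more than 1 site and were shared out by the authors' software: 2772 and 3252 of the 3277 and 3741 Krt6b reads in WT, and 5377 and 8428 of 7521 and 10683 in Nfat5-/- KCs.

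The reads that fit Krt6b alone numbered 505 and 489 in WT and 2144 and 2255 in Nfat5-/- KCs. Scaled to the mapped reads of each library, the Nfat5-/- mean was 3.95 times the WT mean, against 2.38 times for total exon reads. Krt6b rose on this readout with a log2 fold change of 2.00 ± 0.20 (edgeR adjusted p = 0.00710), and the call held in each of 11 alternatives on unique exon reads, with adjusted p-values up to 0.0167. Unique reads that span 2 exons numbered 45 and 46 in WT and 313 and 335 in Nfat5-/- KCs (log2 fold change 2.67 ± 0.23, adjusted p = 0.00229). When Krt6a and Krt6b were summed into 1 row, the log2 fold change was 0.29 ± 0.13 (adjusted p = 0.348), since Krt6a supplies most of the reads.

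Per 100 Krt6a reads, Krt6b had 2.54 and 2.49 total exon reads in WT and 3.92 and 6.08 in Nfat5-/- KCs. With unique exon reads the values were 0.773 and 0.640 in WT and 2.21 and 2.56 in Nfat5-/- KCs, and with unique exon-exon reads 0.410 and 0.349 against 1.88 and 2.38. The groups were apart on each readout. Krt6b was the minor K6 gene in every library.

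**Figure D4:**
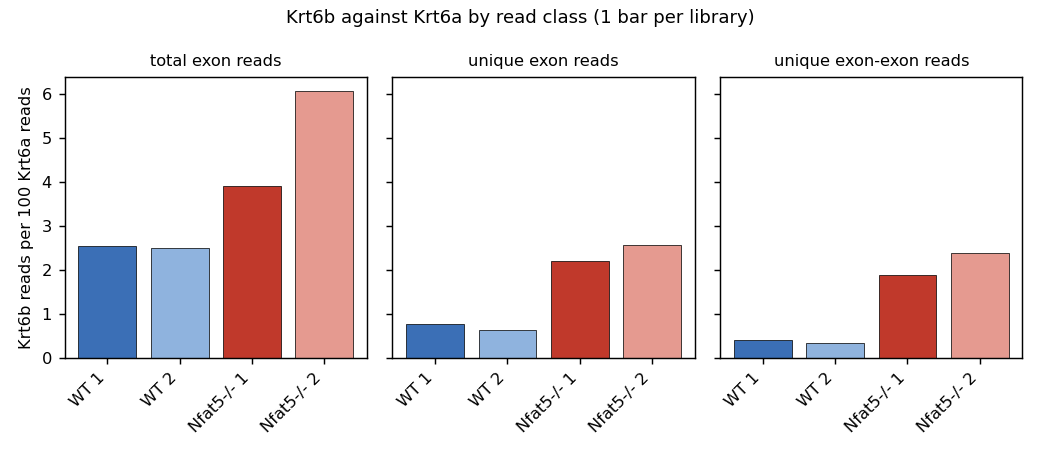
Krt6b reads per 100 Krt6a reads in each library (1 bar per library, axis from 0) for total exon, unique exon and unique exon-exon reads. The unique exon values are 0.773 and 0.640 in WT and 2.21 and 2.56 in Nfat5-/- KCs, each below the total exon value of the same library.

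How far unique reads can stand for a gene was read from its sequence. Each transcript was split into all its 59-base windows, and a window was counted as single-gene when no transcript of another gene held it. Krt17 had 98.3% single-gene windows and 98.3% unique reads, Krt5 92.6% and 89.1%, and Krt6a 53.0% and 50.5%, so the shares nearly matched. Krt6b had 53.4% single-gene windows, but its unique share was 15.4% and 13.1% in WT and 28.5% and 21.1% in Nfat5-/- KCs. Its total exon reads thus held more shared reads than its sequence would give with even coverage, in WT most of all. Krt6a and Krt6b had 909 windows in common, 40.9% of those of Krt6a and 41.8% of those of Krt6b.

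**Figure D5:**
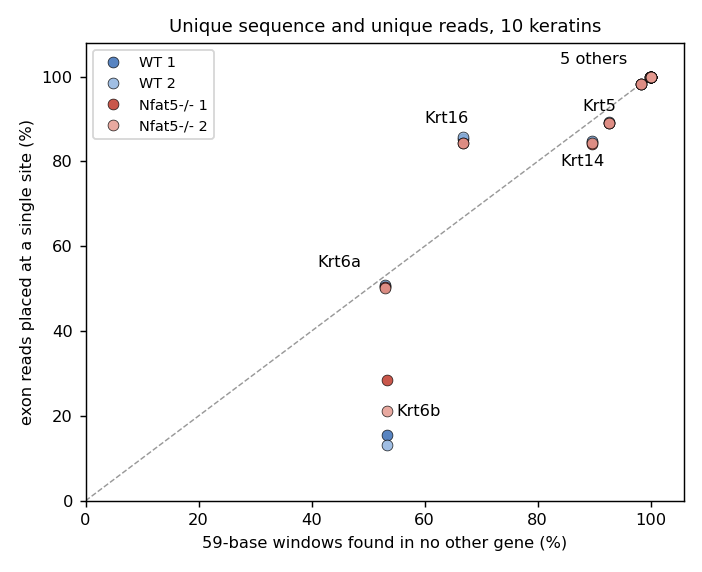
Exon reads placed at a single site against 59-base windows found in no other gene, both in percent, 1 point per gene and library, with the line of equal shares dashed. Krt6b falls far below the line (13.1% to 28.5% against 53.4%), Krt16 lies above it, and 5 other keratins sit at its upper end.

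Scaled to the number of single-gene windows and to mapped reads, which assumes even coverage along the transcript, Krt6b stood at 26.1 and 19.0 on the RPKM scale in WT and at 76.6 and 101.6 in Nfat5-/- KCs. These levels were lower than the deposited RPKM in every library. For Krt6a the same scale gave 3339 and 2932 in WT and 3423 and 3919 in Nfat5-/- KCs, close to the deposited values. Krt16 had 66.9% single-gene windows but 84.7% unique reads. Most of its other windows matched Gm11597, an unprocessed pseudogene (355 windows), and 144 matched Krt14. The reason why its unique share exceeded the window share was not tested. Krt1, Krt10 and Krt75 had no window in common with another gene.

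Krt75, a type II keratin of the hair follicle companion layer, was the wound-group member with the fewest reads, at 91 and 60 in WT and 93 and 28 in Nfat5-/- KCs (1.68 and 0.830 against 1.18 and 0.449 RPKM). The groups overlapped, and the libraries of 1 genotype differed by up to 2.63-fold. Its log2 fold change of −0.57 ± 0.48 did not pass the test (edgeR adjusted p = 0.641) and was 0.020 without WT replicate 1. Over the 5 wound members, all of which reached the filter level in WT, the median log2 fold change was 0.72, and 4 of them were above 0.

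The 43 other keratin genes were mostly silent: 15 had no read in any library, 33 stayed below 1 RPKM in each, and 11 were tested. The calls on total exon reads were Krt7, Krt8 and Krt18, keratins of simple epithelia. Their log2 fold changes were 2.34 (edgeR adjusted p = 0.0201), 1.65 (adjusted p = 0.0226) and 1.33 (adjusted p = 0.0224), each a larger estimate than that of Krt17. Krt23, of the same list, was also called on unique exon reads (log2 fold change 2.15, edgeR adjusted p = 0.0390, against 0.0528 on total exon reads) and with limma at either pseudocount. Krt19 (2.24, adjusted p = 0.113) was called with limma at a pseudocount of 1 alone. None was called lower with edgeR, DESeq2 or limma. Krt19, Krt23 and Krt79 passed the filter on low counts only through the Nfat5-/- libraries, where they had to be higher. Of the 8 others, all had an unadjusted p below 0.05, 7 of them higher and 1 lower (Krt90). The other stratified keratins tested (Krt42, Krt78, Krt79, Krt80) and the hair keratin Krt84 were not called with edgeR or limma, and DESeq2 called Krt79.

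Lists of genes that act with keratins were read beside them. The 13 linkers of keratin filaments to desmosomes and hemidesmosomes, such as plectin (Plec) and desmoplakin (Dsp), gave no call with edgeR, DESeq2 or limma (3 at an unadjusted p below 0.05) and had a median log2 fold change of 0.25. The 12 regulators of keratin genes, such as Trp63 and Klf4, gave none with any of these tools (1 at an unadjusted p below 0.05, median 0.12). The 10 tested signals that induce wound keratins gave none with edgeR on total exon reads or with limma (3 at an unadjusted p below 0.05, median 0.07). On unique exon reads edgeR called 1 of them, Ereg, which encodes the EGF receptor ligand epiregulin and stood at 4.43 and 2.91 RPKM in the WT libraries against 8.64 and 6.90 RPKM in the others (log2 fold change 1.10 ± 0.21, edgeR adjusted p = 0.0527 on total and 0.0437 on unique exon reads). DESeq2 called it as well. It was named after its values were seen.

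Genes of the suprabasal and cornified layers, read as the setting of Krt1 and Krt10, had 12 tested. Calml3 and Dsc1 passed the filter on low counts only through the Nfat5-/- libraries. Calml3, a calmodulin-like protein of differentiated epithelia, had 7 and 4 reads in WT and 49 and 73 in Nfat5-/- KCs. Of the 10 others, 4 were called higher and none lower (8 and 0 at an unadjusted p below 0.05, and none lower with DESeq2 or limma), with a median log2 fold change of 1.67. Those called with at least 1 RPKM were Krtdap, a secreted protein of differentiating KCs (2.52, edgeR adjusted p = 0.0197), and the desmosomal cadherin Dsg1b (2.42, adjusted p = 0.00908). Of the 9 basal layer genes, the setting of Krt5 and Krt14, 2 were called lower and none higher (4 and 0 at an unadjusted p below 0.05, and none higher with DESeq2 or limma). They were the laminin chains Lamb3 (log2 fold change −1.05, adjusted p = 0.00885) and Lama3 (−0.76, adjusted p = 0.0370). All 9 had an estimate below 0. Of the basal keratins, neither of them called, Krt14 had an estimate of −0.13 and Krt5 one of 0.15. The study names several genes of both lists from these libraries, so their counts are not independent evidence of a direction.

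Markers of other cells that a tail skin culture can hold were also read. Of the smooth muscle list the 4 genes that reached the filter level in WT rose (Myl9, Cnn1, Tagln and Acta2, log2 fold changes of 2.44, 2.19, 2.15 and 2.00), and its summed level was 186 and 152 RPKM in the WT libraries against 524 and 832 RPKM in the others. The defining members of that list were low: Des had 1 read in 1 library, and for Myh11 there were 1 and 0 reads in the WT libraries and 19 and 37 in the others, at most 0.294 RPKM. Myh11 passed the filter on low counts only through the Nfat5-/- libraries, so its test is given no weight, although its reads lay on the same side as those of the other 4 genes. The melanocyte list gave 1 call of 4 with edgeR, Tyrp1 (−2.04), with 3 of the 4 lower at an unadjusted p below 0.05. DESeq2 and limma at a pseudocount of 1 also called Pmel lower (−1.46, edgeR adjusted p = 0.0660). The list had a summed level of 7.54 and 7.20 RPKM in the WT libraries against 2.30 and 3.20 RPKM in the others. Fibroblast markers summed to 0.409 to 1.13 RPKM, endothelial markers to 0.528 to 0.751 RPKM, immune markers to at most 0.362 RPKM and Merkel cell markers to at most 0.124 RPKM, with no call in edgeR, DESeq2 or limma and 0 genes at an unadjusted p below 0.05 (3 of their genes were tested). The called smooth muscle genes and Tyrp1 differed between the same libraries as Krt17 and Krt6b, and their part in the values of these keratins was not tested.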

How the data were processed

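Polyadenylated RNA of 4 mouse KC libraries was analysed, grouped by the genotype in the sample titles. The authors aligned the reads to GRCm38 with CLC Genomics Workbench at its default settings and deposited raw counts per gene: total and unique exon reads, exon-exon reads and intron reads. They also deposited RPKM values from exon reads, written with decimal commas. The software divided reads with more than 1 possible site among those sites, which touches Krt6a, Krt6b, Krt14 and Krt16 above all. Whether strand was used in counting is not given in the sources used here.

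The counts were tested with edgeR 4.0.16 in R 4.3.3 (filterByExpr, TMM, quasi-likelihood, two-sided, genotype as the sole term), with Benjamini-Hochberg adjustment over all genes tested and a threshold of 0.05. A ± after a log2 fold change is its standard error (SE), computed as the change over the root of its F statistic. Alternatives used DESeq2 1.42.0, limma 3.58.1 on log2(RPKM + 1) and log2(RPKM + 0.1), other scalings and filters, other read classes, a replicate block and left-out libraries. The scripts were tested on simulated data. Windows of 59 bases were matched to the GENCODE M21 transcripts on the same build, not to the whole genome, and the mice are 129/sv while the printed sequence is the reference. No molecular identifiers were used, so the floor of 3 reads covers counting error only.

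All 10 members were named. List genes were counted, and at most the 4 with the largest change among those called with at least 1 RPKM were named, plus called keratins and genes a result turned on. The members and lists were chosen with earlier results of these data known.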

Additional observations from a re-analysis of the deposited data

How the results depend on the processing

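On total exon reads, the count of called members, 1, became 3 with library totals as scaling, 4 without a filter on low counts (Krt1, Krt6b, Krt16, Krt17), 2 with DESeq2, 2 with unique and 2 with unique exon-exon reads, and 0 with the replicate block or with limma at either pseudocount. It ran from 0 to 2 without 1 library, where the remaining library of that genotype is assumed to vary like the other genotype. The count over all genes, 175, became 263, 1109 and 420 for the first 3 of these and 105 for unique exon-exon reads (where Krt6b and Krt16 were the members called), and ran from 28 (without Nfat5-/- replicate 2) to 244 (without WT replicate 2). On unique exon reads, all of these alternatives being chosen after seeing the data, 218 became 362 with library totals, 1076 without a filter and 407 with DESeq2, and 48 to 348 without 1 library. The 2 members called became 3, with Krt16, under RLE size factors, library totals, scaling without keratin genes and DESeq2, 4 without a filter, with Krt1 as well, and 1 to 2 without 1 library. Krt6b was called each time, while Krt17 was not without WT replicate 1 or 2 or Nfat5-/- replicate 2.

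Without 1 library each, the log2 fold change of Krt14 ran from −0.31 to 0.092 on total (reversed without WT replicate 1, and at 0.0027 without Nfat5-/- replicate 1) and from −0.32 to 0.079 on unique exon reads, and that of Krt75 from −1.43 to 0.020 and from −1.43 to 0.021, reversed without WT replicate 1. With unique exon reads over full exon length, the type I to type II ratio moved to 1.61 in WT and 1.79 in Nfat5-/- KCs. This scaling lowers the type II sum more than the type I sum, as 50.5% of Krt6a reads were unique and 98.3% of Krt17 reads. The Krt6b ratio moved to 3.95. The cause of the Krt6b move was not tested. Of the members' log2 fold changes under all alternatives, 238 kept their direction and side of the threshold, 18 passed it, 10 lost it and 5 reversed.

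Same-numbered libraries did not deviate together (correlation −0.0492), so the numbers were not taken as pairs. Under the replicate block the 175 calls became 164 and the adjusted p of Krt17 on total exon reads 0.0630. Depth limits Krt15, Krt1, Krt10 and Krt75, which had at most 93 reads in a library.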

Other observations

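Intron reads, which can come from unspliced RNA, were few for the abundant members. Krt17 had 180 and 173 intron reads in WT and 183 and 193 in Nfat5-/- KCs, which as CPM of the mapped reads gave 10.8 and 7.81 against 7.60 and 10.1. The groups overlapped, with a ratio of means of 0.950, beside 1.63 for the exon reads. Krt14 had 187 and 162 intron reads in WT and 136 and 132 in Nfat5-/- KCs, or 11.2 and 7.32 against 5.65 and 6.91 CPM, lower in both Nfat5-/- libraries. Krt6b had 2, 3, 4 and 10 intron reads in WT 1, WT 2, Nfat5-/- 1 and Nfat5-/- 2, too few to compare. These values were not tested.

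Krt90, a keratin gene outside the lists, was the sole other keratin above 100 RPKM in a WT library besides Krt8 and Krt18, at 199 and 134 RPKM in the WT libraries against 61.4 and 119 RPKM in the others. Both Nfat5-/- values were lower, but the log2 fold change of −0.87 ± 0.31 did not pass the test (edgeR adjusted p = 0.255). It was chosen after its values were seen.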
